A study of Saccharomyces cerevisiae with 66 samples.

Results

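The genes described here are the 3 core proteins of the Nrd1 termination complex of budding yeast (Saccharomyces cerevisiae), NRD1, NAB3 and SEN1, together with 6 genes named beside them: HRP1, IMD2, IMD3, URA2, URA8 and ADE12. They were taken by name, 9 in all, and 8 of them had a line among the 6171 gene lines of the deposited table. IMD2 (YHR216W) had no line of its own, so none of its values can be given, and where its reads were counted is not known. All 8 passed the filter on low counts, with at least 578 counts in every library, and are followed here across 66 poly(A) RNA libraries.

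The libraries come from diploid cells in sporulation medium, a starvation medium in which yeast enters meiosis. Each of 11 strains was sampled with IAA (indole-3-acetic acid, an auxin) and with DMSO, in 3 libraries each, at 4 h per the titles. The strain called WT carries the TIR ligase and no tagged target. The other 10 strains are each named for 1 target. These are the Ccr4-Not subunits POP2, CAF40 and NOT5, the decapping factors DCP2, PAT1 and LSM1, the poly(A)-binding protein PAB1, the exonucleases XRN1 and RAT1, and the exosome subunit RRP6. The genotype labels give the target a 3V5-IAA7 tag marked with KanMX, which auxin turns into a signal for destruction of the protein, but give no tag for CAF40. All strains share the markers ho::LYS2, lys2 and ura3, the hisG disruptions of leu2 and trp1, and an insertion at his3. The numbers after KanMX, and in WT and CAF40 those of the his3 insertion, run upward from sample to sample in the labels, and whether they name different constructs is not known. The additions came 3 h after the shift to that medium, with 500 µM IAA and 50 µM CuSO4, and the labels do not say whether DMSO cultures received the copper. The labels also do not say whether the numbered replicates were separate cultures, so p-values measure the spread between these samples, which may be technical.

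Nrd1 and Nab3 are RNA-binding proteins that recognise short motifs in newly made RNA, and Sen1 is the helicase that removes RNA polymerase II from the template. Together they end transcription of small nucleolar RNAs and of short unstable transcripts, whose ends are then trimmed or destroyed by the nuclear exosome and its exonuclease Rrp6. The same route can end transcription early within protein-coding genes, which is called attenuation. NRD1 limits its own messenger RNA in this way, and IMD2, URA2, URA8 and ADE12 are nucleotide synthesis genes reported to be attenuated when the matching nucleotide is plentiful. HRP1 encodes a cleavage factor that binds RNA and is itself reported to carry an attenuator. Rat1 is the nuclear 5′ to 3′ exonuclease that acts on the downstream RNA after cleavage at the poly(A) site.

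The sequences shown are 30 bases around candidate Nrd1 motifs (GTAA or GTAG, in capitals) in the RNA-sense strand, from the RefSeq R64 reference, within 250 bases before to 50 bases after the first base of the start codon. NRD1 is shown because the first results are about its level, and the other 3 because they carry such a motif in a nucleotide synthesis gene. R64 annotates no UTRs, so positions are counted from the start codon. The build used to make the table is not given in the sources used here, and the strains' own sequence was not read.
NRD1: ttttcaaaattttGTAGctaccttggaatc
URA8: taggaatcaatttGTAAagttctaaaaaaa
ADE12: ggataagGTAGgggaaatcGTAAcattact
IMD3: taactccgaaaGTAGTAAaagcaatggccg
The NRD1 stretch lies at chrXIV:174269-174298 on the minus strand, inside the coding sequence, at bases 18 to 47 from the start. The URA8 stretch is chrX:620702-620731 on the plus strand, before the coding sequence. The ADE12 stretch is chrXIV:234364-234393 on the plus strand, also before the coding sequence. The IMD3 stretch is chrXII:1002534-1002563 on the plus strand and ends 7 bases into the coding sequence.

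Motif counts in these windows are a description of letters only. ADE12 held 9 matches to GTAA or GTAG in the sense strand, a number that 0.117% of the 6001 windows of all genes reached. NRD1 and URA8 held 2 each, reached by 65.2% of windows, IMD3 held 3 (40% of windows), and URA2 and HRP1 held 0. On the opposite strand the NRD1 window held 7 matches (1.08% of windows) and that of SEN1 6 (3.38%). URA2, ADE12 and HRP1 held 4 each there (20.8%), IMD3 3 (39%), NAB3 1 (88.6%) and URA8 0. In the sense strand the Nab3 motif TCTTG was matched 2 times in URA8 (6.12% of windows), 1 time each in NAB3 and IMD3 (31.5%), and 0 times in NRD1, SEN1, URA2, ADE12 and HRP1. On the opposite strand TCTTG was matched 2 times in IMD3 (10.8% of windows), 1 time each in NAB3 and HRP1 (41.4%), and 0 times in the others. Both strands were searched, and a TCTTG can share its final G with the start of a GTAA or GTAG.

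Library totals lay between 12.6 and 28.3 M counts, with 12.6 to 18.0 M in the RRP6 strain, 18.6 to 24.9 M in RAT1 and 17.4 to 20.0 M in WT. Values below are CPM (counts scaled to a common library total with TMM factors), and n is 3 libraries for each group mean. The early meiotic markers summed to 4571 to 24110 CPM across libraries, and those of middle and late sporulation to 23.5 to 6947 CPM. The tested haploid mating markers summed to 63.0 to 159 CPM in these diploids. Their medians ran from 0.196 CPM for MFA1 to 26.3 CPM for GPA1. In the RRP6 strain the RRP6 transcript stood at 50.2 ± 4.46 CPM with IAA and 52.6 ± 4.93 with DMSO, against 97.8 ± 19.8 and 83.6 ± 10.5 in WT. In the RAT1 strain the RAT1 transcript stood at 84.7 ± 23.0 CPM with IAA and 68.0 ± 13.7 with DMSO, against 116 ± 16.5 and 105 ± 13.9 in WT. Neither transcript changed with IAA in its own strain by limma (log2 -0.07, adjusted p = 0.936, and 0.30, adjusted p = 0.270), and a degron acts on the protein, which was not measured.

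NRD1 (YNL251C), the RNA-binding subunit that gives the complex its name, had its highest level of all 22 groups in the RRP6 strain with IAA. Its 3 RRP6 libraries with IAA read 1433, 1616 and 1398 CPM. With DMSO the same strain read 577, 680 and 555 CPM. WT read 464, 357 and 273 CPM with IAA and 339, 382 and 310 CPM with DMSO. All 3 RRP6 libraries with IAA lay above every other library of the series, and the RRP6 libraries with DMSO lay above all 6 WT libraries.

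**Figure D1:**
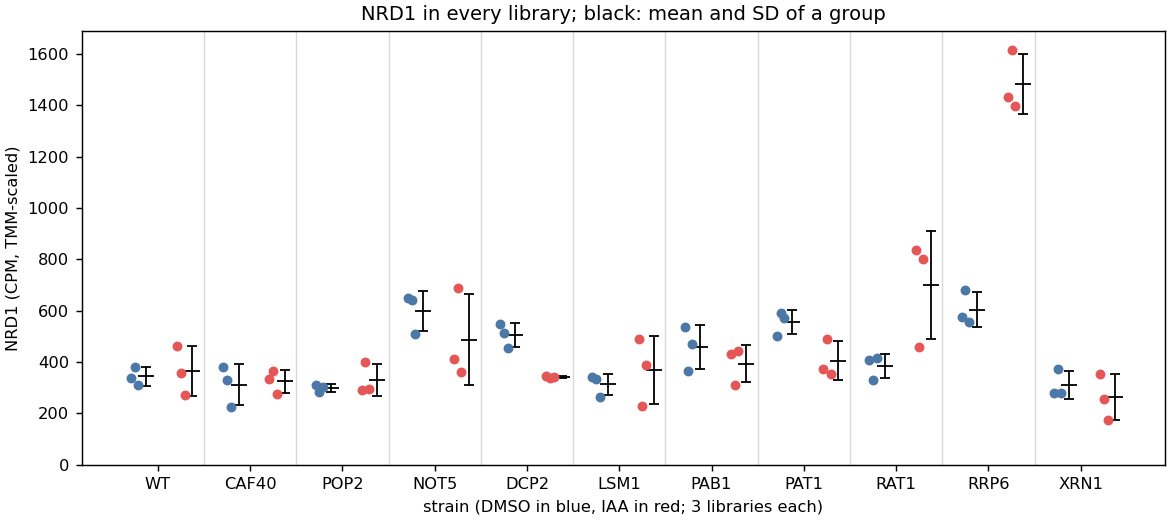
NRD1 in every library, in CPM after TMM scaling on a linear axis, by strain, with DMSO in blue, IAA in red and the mean and SD of each group of 3 in black. The 3 RRP6 libraries with IAA sit between 1398 and 1616 CPM, and 2 of the 3 RAT1 libraries with IAA sit above 800 CPM.

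With IAA against DMSO, NRD1 rose in the RRP6 strain by 1.30 on the log2 scale, or 2.46-fold (SE 0.27, limma adjusted p = 0.00160). It was the only 1 of the 8 genes called there, a share of 12.5%, where 4.62% of all 5828 genes tested were called. Among all genes it ranked 55 by p. Leaving out each of the 6 libraries in turn gave 1.24 to 1.38, called in 6 of 6 fits. A bulk level cannot tell more transcripts per cell from a larger share of cells that carry them, and the table gives 1 value per gene, so a short attenuated transcript and a full-length one are counted alike.

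In the RAT1 strain NRD1 read 837, 458 and 803 CPM with IAA and 406, 331 and 415 CPM with DMSO. The groups did not overlap, but the second IAA library lay close to the DMSO libraries. NRD1 rose by 0.84 on the log2 scale, or 1.79-fold (SE 0.25, limma adjusted p = 0.0138), and was again the only 1 of the 8 called, where 20% of all genes were. The call was lost without IAA library 1, without IAA library 3 and without DMSO library 2, with estimates from 0.68 to 1.10 over the 6 fits, and adjusted p was 0.0587 when only the RAT1 groups were fitted.

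The change of NRD1 beyond that of WT was 1.24 on the log2 scale in RRP6 (95% interval 0.52 to 1.96) and was not called (unadjusted p = 0.00108, limma adjusted p = 0.350). That comparison called 1 gene of 5828 (0.0172%), and none of the 8 genes here, of which 3 had an unadjusted p under 0.05. NRD1 ranked 18 by p in it. In RAT1 the change beyond WT was 0.78 (interval 0.08 to 1.47, adjusted p = 0.230), in a comparison that called 6.88% of genes, none of the 8 and 4 of them at an unadjusted p under 0.05, and 1 of the 8, SEN1 (0.39, adjusted p = 0.0416), with the replicate block. The RRP6 change exceeded the RAT1 change by 0.46 (interval -0.28 to 1.21, adjusted p = 0.651), so the 2 strains were not shown to differ. That last comparison called 6.85% of all genes and 0 of the 8, with 1 at an unadjusted p under 0.05 and 1 (URA8) called with the replicate block.

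Measured against WT with IAA, NRD1 was higher in the RRP6 strain by 2.05 on the log2 scale, or 4.14-fold (SE 0.26, limma adjusted p = 1.40e-07). It ranked 24 by p, and 2 of the 8 genes were called, both higher (25%, where 4.24% of all genes were called). In the RAT1 strain it was higher by 0.94, or 1.91-fold (adjusted p = 0.00402), although the lowest RAT1 library (458 CPM) lay just under the highest WT library (464 CPM), and adjusted p was 0.0551 with only the groups compared. That comparison called 3 of the 8 genes, against 23.8% of all genes. These comparisons share the WT libraries with those beyond WT and are not separate evidence.

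Without auxin, NRD1 in the RRP6 strain was 1.76-fold the WT level (log2 0.81, SE 0.24, limma adjusted p = 0.110), which did not pass, in a comparison that called 0.824% of genes and 1 of the 8. Several other strains also stood above WT with DMSO. NRD1 averaged 600 ± 77.7 CPM in NOT5, 555 ± 47.3 in PAT1, 506 ± 46.9 in DCP2 and 459 ± 86.6 in PAB1, against 344 ± 36.5 in WT. None of these 4 was called, with log2 differences of 0.81, 0.69, 0.56 and 0.40 and adjusted p of 0.127, 0.248, 0.959 and 0.158. The middle and late sporulation markers moved with the strain as well. Their summed mean was 1336 CPM in RRP6 and 1869 CPM in RAT1 with DMSO, against 422 CPM in WT, with 0 of 7 called and 2 at an unadjusted p under 0.05 in each. With IAA it was 944 CPM in RRP6, 1276 CPM in RAT1 and 339 CPM in WT. Its part in the differences from WT was not tested.

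In the order of NRD1 levels, RRP6 with IAA (1482 ± 117 CPM) stood apart from the next group, RAT1 with IAA (699 ± 209). From there each mean lay within the summed SDs of itself and its neighbour: RRP6 with DMSO (604 ± 66.7), NOT5, PAT1 and DCP2 with DMSO, NOT5 with IAA (487 ± 176) and PAB1 with DMSO. The lower 14 of the 22 groups spanned 262 ± 89.5 CPM in XRN1 with IAA to 405 ± 75.1 CPM in PAT1 with IAA, and neighbours in that order differed by less than their summed SDs. With IAA the level was below that with DMSO in NOT5, DCP2, PAB1, PAT1 and XRN1, by 0.23 to 0.56 on the log2 scale, and none of these 5 was called.

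NAB3 (YPL190C), the partner of Nrd1 that binds its own RNA motif, had positive IAA changes in 10 of 11 strains. In POP2 it read 509, 618 and 594 CPM with IAA and 355, 342 and 345 CPM with DMSO, and rose by 0.72 on the log2 scale (SE 0.15, limma adjusted p = 1.67e-04). POP2 encodes a deadenylase of the Ccr4-Not complex, and its comparison called 36.2% of all genes and 3 of the 8. Smaller rises were called in LSM1 (0.40, adjusted p = 0.0454) and PAB1 (0.38, adjusted p = 0.0424), where 18.5% and 22.2% of genes and 1 of the 8 in each were called, and both pairs of groups overlapped. Both calls were lost with total counts as the scaling (adjusted p = 0.0954 and 0.389) and with only the groups compared (0.553 and 0.363), and the LSM1 call with median-of-ratios scaling (0.0587) and with no low-count filter (0.0503). The LSM1 call was lost in 5 of 6 fits that left out 1 library (0.22 to 0.69), all but the one without IAA library 2, and the PAB1 call without IAA library 1, IAA library 3 or DMSO library 2 (0.19 to 0.51). With the replicate block, NAB3 was also called in DCP2 (0.45, adjusted p = 0.0182) and PAT1 (0.39, adjusted p = 0.0483). The change in WT was 0.35, and in no strain was the NAB3 change beyond WT called.

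In the RRP6 strain NAB3 read 476, 450 and 472 CPM with DMSO, against 366, 290 and 304 CPM in WT, with no overlap. This difference of 0.55 on the log2 scale passed the test (limma adjusted p = 0.0384), the only call among the 8 for that comparison, but 5 of 6 fits that left out 1 library lost it, all but the one without WT library 1, as did the fit without voom weights and the one with only the groups compared (adjusted p = 0.0519 and 0.0839). With IAA the RRP6 libraries read 485, 601 and 595 CPM, a change of 0.26 that was not called. RAT1 was the strain with a negative change. NAB3 read 255, 275 and 293 CPM there with IAA, all below the 378, 402 and 441 CPM of WT with IAA, a difference of -0.57 (adjusted p = 0.00193) that held in all 6 fits without 1 library.

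SEN1 (YLR430W), the helicase, was lowest in the POP2 strain. It read 108, 137 and 122 CPM with IAA and 193, 207 and 220 CPM with DMSO in POP2, against 250, 273 and 288 CPM with IAA and 338, 305 and 320 CPM with DMSO in WT. The 4 sets of 3 did not overlap. SEN1 fell by 0.76 on the log2 scale with IAA in POP2 (limma adjusted p = 1.91e-07). The fall was 0.51 beyond that of WT (SE 0.15, adjusted p = 0.0272), the only call beyond WT in the 80 values of the 8 genes in 10 strains, in a comparison that called 9.69% of genes. That call was lost in 5 of 12 fits that left out 1 library, those without WT IAA library 3, WT DMSO library 2 or 3, POP2 IAA library 1 or POP2 DMSO library 3 (-0.59 to -0.42). With DMSO, SEN1 in POP2 was already lower than WT by 0.64 (adjusted p = 3.03e-05), where 24.8% of genes and 3 of the 8 were called. Meiotic markers were lower in the same strain. With DMSO, 7 of 10 early meiotic markers (median -0.90 on the log2 scale) and 3 of 7 of middle and late sporulation (median -2.54) were called below WT, none above. The early list summed to 8747 to 12416 CPM in POP2 against 15759 to 17640 CPM in WT, and the later list to 30.6 to 97.5 against 172 to 583 CPM. With IAA against DMSO in POP2, 9 of 10 early markers fell (median -0.91, to 4993 to 8149 CPM) and 1 of 10 was called lower beyond WT. Their part in the POP2 results of SEN1, NAB3, IMD3, URA8 and ADE12 was not tested.

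SEN1 also fell with IAA in XRN1, the cytoplasmic 5′ to 3′ exonuclease strain, by 0.38 (limma adjusted p = 0.0261), as the only 1 of the 8 called against 8.85% of genes. It read 245, 231 and 246 CPM with IAA and 297, 333 and 311 CPM with DMSO. The call was lost in 4 of 6 fits that left out 1 library, those without IAA library 1 or 2 or DMSO library 2 or 3, and with total counts or only the groups compared (adjusted p = 0.0623 and 0.137). Of the early meiotic markers 2 of 10 fell in the same comparison (median -0.54), and their part in it was not tested. In RRP6 SEN1 changed by -0.09 with IAA and in RAT1 by 0.14, neither called. Against WT with IAA, SEN1 in RAT1 was higher by 0.34 (322, 353 and 351 CPM, adjusted p = 0.0233), a call lost without WT IAA library 1 or 2 or RAT1 IAA library 2 or 3, and with total counts or only the groups compared (adjusted p = 0.204 and 0.0794).

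**Figure D2:**
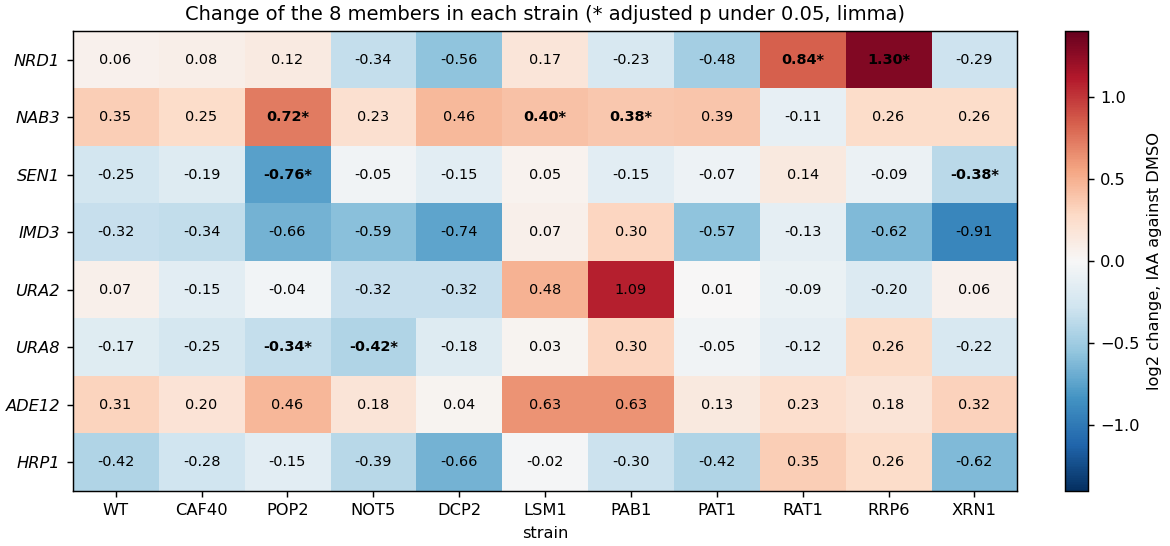
Log2 change with IAA against DMSO for the 8 measured genes (rows) in the 11 strains (columns), with red for higher and blue for lower, and an asterisk where the limma adjusted p was under 0.05. The 9 marked cells are NRD1 in RAT1 and RRP6, NAB3 in POP2, LSM1 and PAB1, SEN1 in POP2 and XRN1, and URA8 in POP2 and NOT5.

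HRP1 (YOL123W), the RNA-binding subunit of cleavage factor I, followed NRD1 in level over the libraries without being called in any comparison of the fit without a block. In RRP6 it read 501, 525 and 388 CPM with IAA and 340, 484 and 362 CPM with DMSO, and in RAT1 519, 278 and 462 CPM with IAA and 304, 307 and 360 CPM with DMSO. Both pairs overlapped, with changes of 0.26 and 0.35 on the log2 scale (limma adjusted p = 0.649 and 0.338). The other 9 strains had changes from -0.66 in DCP2 to -0.02 in LSM1. With the replicate block HRP1 was called lower in DCP2 (-0.66, adjusted p = 0.0385) and XRN1 (-0.62, adjusted p = 0.0216). Beyond WT the change was 0.68 in RRP6 and 0.76 in RAT1, at an unadjusted p of 0.0381 and 0.0220, and neither was called.

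Over the 22 group means NRD1 and HRP1 correlated with a Pearson r of 0.692, and with 0.787 over the 20 groups left after taking out RRP6 and RAT1 with IAA. The deviations of single libraries from their group means correlated with an r of 0.846 over 66 libraries. These points share library preparation and scaling, so the values are a description. HRP1 did not follow NRD1 into the range of the RRP6 libraries with IAA, where NRD1 was over 1398 CPM and HRP1 stayed at 388 to 525 CPM, within the range of other strains.

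**Figure D3:**
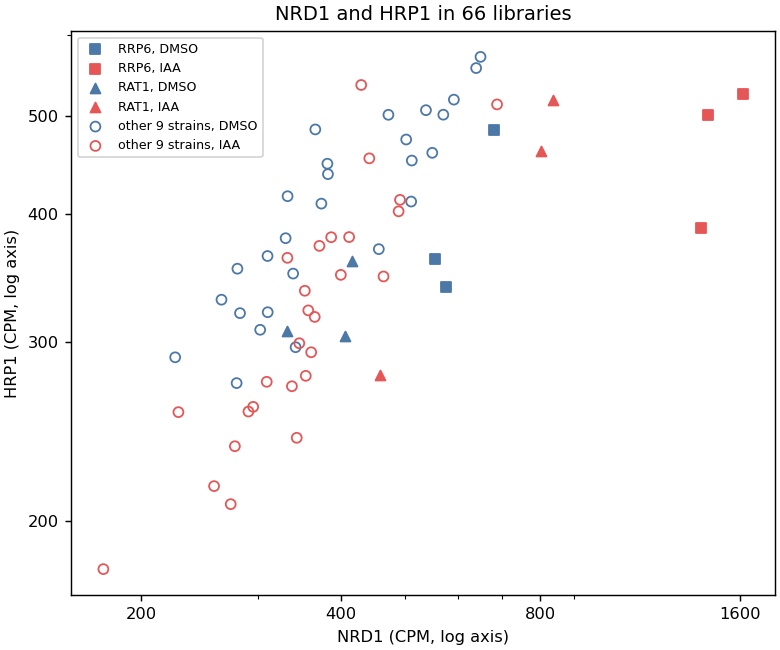
HRP1 against NRD1 in the 66 libraries, both in CPM on log axes, with squares for RRP6, triangles for RAT1 and open circles for the other 9 strains (DMSO blue, IAA red). The cloud slopes upward, and the 3 RRP6 libraries with IAA lie far to the right of it at HRP1 levels of 388 to 525 CPM.

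By likeness of mean log2 CPM over the 22 groups, the 5 genes closest to NRD1 were Unit14431 (r 0.833), CIN1 (0.827), FEX2 (0.823), YGR117C (0.803) and SKI7 (0.778). Unit14431 is a feature named so in the table, with no RefSeq entry. RRP6 and RAT1 with IAA, where NRD1 was highest, are among the 22 groups that chose these genes, so their changes there are given with no test. With IAA against DMSO the log2 change in RRP6 and in RAT1 was 0.94 and 0.52 for CIN1, a tubulin folding factor, and 0.72 and 0.64 for FEX2, a fluoride exporter. It was 0.44 and 0.25 for SKI7, a cofactor of the cytoplasmic exosome, and 0.12 and 0.02 for YGR117C. FEX2 has a near-identical copy in FEX1, so its counts are uncertain. RAD50, the neighbour upstream of NRD1 on the opposite strand, changed by 0.07 in RRP6 and 0.13 in RAT1, neither called.

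The nucleotide synthesis genes were followed in the same libraries. The copy of IMP dehydrogenase that could be measured was IMD3 (YLR432W), which makes the first committed step to guanine nucleotides. It shares long identical stretches with IMD2 and IMD4, so its counts are uncertain. In RRP6 it read 87.8, 111 and 79.4 CPM with IAA and 89.9, 212 and 147 CPM with DMSO, and in RAT1 83.4, 88.8 and 90.2 CPM with IAA and 85.1, 96.5 and 106 CPM with DMSO. The groups overlapped in both strains, with changes of -0.62 and -0.13 on the log2 scale, and neither was called.

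IMD3 was low in POP2. With DMSO it read 55.0, 64.0 and 40.0 CPM there, all below the 79.0, 174 and 164 CPM of WT, a difference of -1.33 (SE 0.45, limma adjusted p = 0.0254) that was lost without WT library 2 or 3 or POP2 library 3 (-1.70 to -1.13). Summing IMD3 and IMD4 gave -1.28 (adjusted p = 0.0342). With the replicate block IMD3 was also called lower with IAA in XRN1 (-0.90, adjusted p = 0.0281).

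URA2 (YJL130C), the enzyme that starts pyrimidine synthesis, varied widely between libraries of a group. In RRP6 it read 730, 1178 and 893 CPM with IAA and 1056, 977 and 1094 CPM with DMSO, and in RAT1 633, 1522 and 1376 CPM with IAA and 805, 1237 and 1591 CPM with DMSO. Neither change (-0.20 and -0.09 on the log2 scale) was called, with or without the replicate block. The 95% intervals of the fit without it, -1.16 to 0.77 and -1.13 to 0.95, leave changes of either sign possible. They also carry the spread in level between numbered replicates. The URA2 means were highest in LSM1 and PAB1 with IAA, at 3860 ± 2052 and 3452 ± 853 CPM, which differed by less than their SDs. In LSM1, a strain for a decapping activator, URA2 read 1611, 5630 and 4339 CPM with IAA and 2694, 1571 and 3396 CPM with DMSO. The DMSO libraries were all above the 831, 883 and 1057 CPM of WT, a difference of 1.41 (SE 0.54, limma adjusted p = 0.0411). LSM1 with DMSO called 30.2% of genes and 3 of the 8, and 5 of 6 fits without 1 library lost this call, all but the one without LSM1 library 2. In PAB1, URA2 read 2507, 3685 and 4165 CPM with IAA and 1556, 1285 and 1961 CPM with DMSO. The groups did not overlap, and the change of 1.09 was called with the replicate block (adjusted p = 0.00925) and not without it (0.158).

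URA8 (YJR103W), a CTP synthase, was the second gene called in RRP6 against WT. Its RRP6 libraries with IAA read 413, 346 and 406 CPM, above the 267, 246 and 264 CPM of WT with IAA, and differed by 0.59 on the log2 scale, or 1.50-fold (SE 0.13, limma adjusted p = 0.00170). That call held in all 6 fits without 1 library. With DMSO the RRP6 libraries read 350, 293 and 328 CPM, and the change with IAA was 0.26 (adjusted p = 0.293). The change beyond WT was 0.43 (unadjusted p = 0.0203) and was not called. In RAT1 URA8 read 281, 209 and 244 CPM with IAA and 270, 255 and 273 CPM with DMSO, a change of -0.12 that was not called.

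URA8 fell with IAA in POP2 (-0.34, limma adjusted p = 0.0386) and in NOT5 (-0.42, adjusted p = 0.0253), the latter as the only 1 of the 8 called against 10.2% of genes. In NOT5 it read 208, 242 and 217 CPM with IAA and 308, 313 and 269 CPM with DMSO, without overlap, while in POP2 the groups overlapped. Each call was lost in 4 of 6 fits that left out 1 library. In POP2 these were IAA libraries 2 and 3 and DMSO libraries 1 and 3, and in NOT5 IAA libraries 1 and 3 and DMSO libraries 1 and 2. The POP2 call was also lost with median-of-ratios scaling, with both other filters and with only the groups compared, the NOT5 call with the last (adjusted p up to 0.0789 and 0.122). With DMSO, URA8 was lower in LSM1 than in WT by 0.44 (189, 237 and 218 against 318, 291 and 265 CPM, adjusted p = 0.00598), a call lost without LSM1 library 1 and with only the groups compared (adjusted p = 0.0567). With the replicate block it was called higher with IAA in PAB1 (0.30, adjusted p = 0.0104).

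ADE12 (YNL220W), adenylosuccinate synthase on the branch to AMP, had positive IAA changes in 11 of 11 strains, from 0.04 in DCP2 to 0.63 in LSM1, and none was called. WT was among them (0.31), and in no strain did the change beyond WT pass. In RRP6 it read 137, 112 and 96.3 CPM with IAA and 109, 86.4 and 108 CPM with DMSO, and in RAT1 108, 169 and 121 CPM with IAA and 98.2, 124 and 111 CPM with DMSO. The groups overlapped in both strains. With the replicate block the changes in LSM1 (0.62, limma adjusted p = 0.0190) and PAB1 (0.64, adjusted p = 0.01003) were called.

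With DMSO, ADE12 was above WT in POP2 and LSM1. It read 149, 195 and 176 CPM in POP2 and 200, 139 and 178 CPM in LSM1, against 105, 94.0 and 110 CPM in WT, with no overlap. The differences were 0.75 (limma adjusted p = 0.0191) and 0.73 (adjusted p = 0.0182) on the log2 scale, and each was lost in 3 of 6 fits without 1 library. Both calls were lost without WT library 2, and otherwise without POP2 library 2 or 3 and without LSM1 library 1 or 3. In LSM1 with DMSO, URA2 and ADE12 stood above WT and URA8 below it. Meiotic markers were lower there as well: 9 of 10 early markers were called below WT (median -1.12 on the log2 scale, summing to 7430 to 12891 CPM), and 1 of 7 of middle and late sporulation (median -2.47, 50.4 to 126 CPM). With IAA against DMSO in LSM1, 8 of 10 early markers fell (median -0.90). In PAB1 with DMSO, 5 of 10 early markers were called above WT and 1 below, and 5 of 7 later ones above, with the later list at 470 to 6947 CPM. With IAA in PAB1, 5 of 10 early markers fell (median -0.70). Their part in the LSM1 and PAB1 results was not tested.

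**Figure D4:**
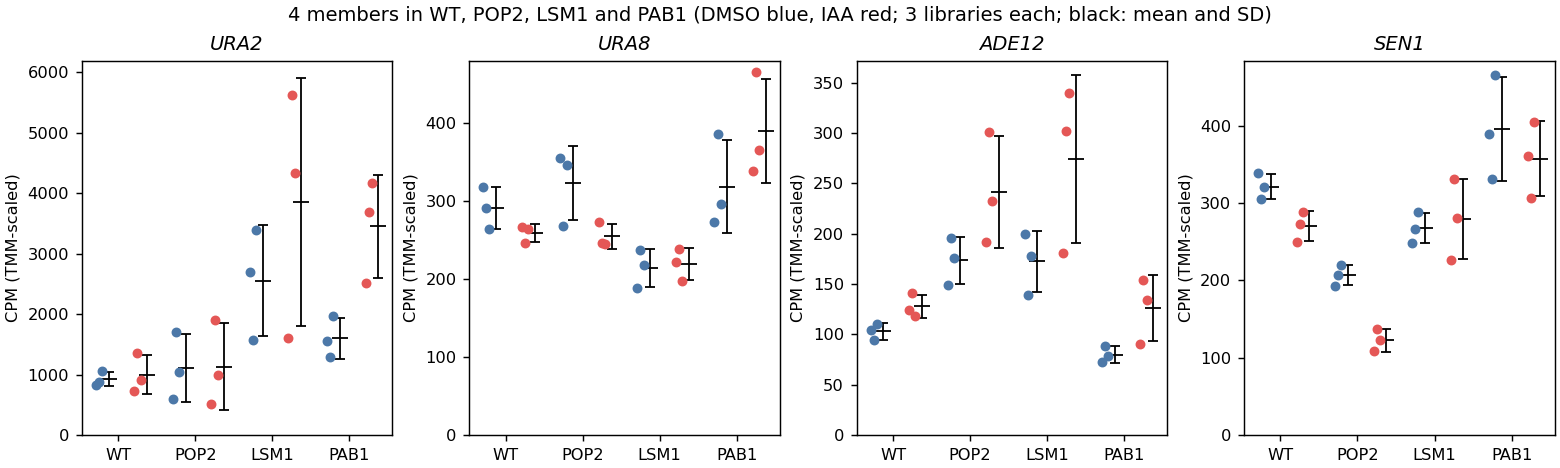
URA2, URA8, ADE12 and SEN1 in WT, POP2, LSM1 and PAB1, in CPM on linear axes from 0, with DMSO in blue, IAA in red and the mean and SD of each group of 3 in black. URA2 has means of 3860 CPM in LSM1 and 3452 CPM in PAB1 with IAA, ADE12 stands highest in LSM1 with IAA at 274 CPM, and SEN1 lowest in POP2 with IAA, at 122 CPM.

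Per kilobase of coding length, WT with DMSO held 239 ± 29.5 CPM of HRP1, 199 ± 21.1 of NRD1, 168 ± 15.4 of URA8, 139 ± 17.8 of URA2, 133 ± 16.8 of NAB3, 88.3 ± 33.1 of IMD3, 79.0 ± 6.23 of ADE12 and 48.0 ± 2.48 of SEN1. SEN1 was the lowest of the 3 core subunits on this scale. Neighbours in this order differed by less than their summed SDs, except ADE12 and SEN1.

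**Figure D5:**
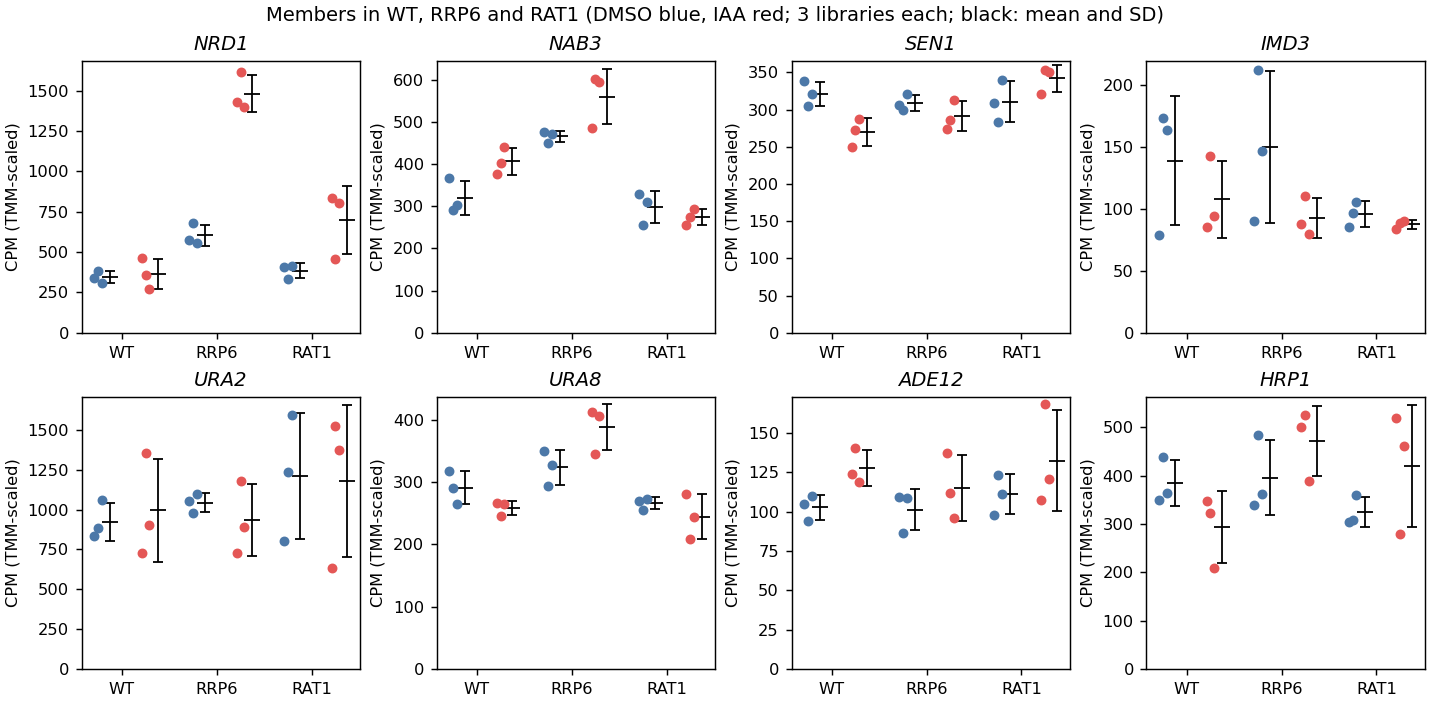
The 8 measured genes in WT, RRP6 and RAT1, in CPM on linear axes from 0, with DMSO in blue, IAA in red and the mean and SD of each group of 3 in black. NRD1 is the gene whose RRP6 libraries with IAA (mean 1482 CPM) are set apart from their DMSO libraries (604 CPM) with an adjusted p under 0.05.

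Counted over all strains, IAA against DMSO gave 9 calls in 88 values of the 8 genes (10.2%), where 12.3% of all values of all genes were called. The strains not named above called 3.41% of genes in WT, 7.81% in CAF40, 1.8% in DCP2 and 1.34% in PAT1, with 0 of the 8 in each. Beyond WT the 8 genes gave 1 call in 80 values (1.25%, all genes 1.88%). The shares of all genes called beyond WT were 0.326% in NOT5, 0.48% in LSM1, 1.37% in PAB1 and 0.0515% in PAT1, and 0% in CAF40, DCP2 and XRN1, with 0 of the 8 in each. With DMSO against WT the 8 genes gave 8 calls in 80 values (10%, all genes 10.2%). Strains with 0 of the 8 there called 0.0515% of genes in CAF40, PAT1 and XRN1, 0.172% in NOT5, 0.103% in DCP2 and 0.755% in RAT1. SEN1 in PAB1 was the last of these (0.29 on the log2 scale, limma adjusted p = 0.0343), in a comparison that called 45.3% of genes, and it turned to -0.11 when libraries were scaled by total counts and was lost with only the groups compared (adjusted p = 0.196). These 3 shares are near the background of all genes. In RRP6 and RAT1 with IAA against WT with IAA the 8 genes gave 5 calls in 16 values (31.2%, all genes 14%). In RRP6 with IAA the median change of the 8 genes was 0.22 and that of all genes -0.0051, and in RAT1 0.03 and -0.0044. Beyond WT these medians were 0.04 and -0.0029 in RRP6, and 0.12 and 0.0285 in RAT1.

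Genes that work beside the complex were taken as lists. There were 11 partners: RRP6 itself, the TRAMP polyadenylation complex, exosome cofactors and the cap-binding complex. With IAA, 0 of them were called in RRP6 and 0 in RAT1 by limma, where 4.62% and 20% of all genes were. At an unadjusted p under 0.05 were 2 and 5 partners, and 940 and 1762 of all 5828 genes. With the replicate block 3 and 6 partners were called, and 830 and 1936 of all genes. The partners' median change was -0.05 in RRP6 (all genes -0.0051) and 0.28 in RAT1 (all genes -0.0044). Beyond WT their median was -0.14 in RRP6 (all genes -0.0029) and -0.0064 in RAT1 (all genes 0.0285). In each of these 0 were called, with and without the block. AIR2, the RNA-binding subunit of TRAMP, was the 1 partner called in the RRP6 strain with DMSO. It read 90.9, 73.2 and 77.3 CPM there with DMSO against 35.3, 32.8 and 30.1 CPM in WT, 2.45-fold higher (log2 1.29, SE 0.14, adjusted p = 5.43e-09). With IAA it read 98.8, 92.1 and 103 CPM, so AIR2 was high with and without auxin, while NRD1 was far higher with it.

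Among 10 other genes reported to be limited by the complex or the nuclear exosome, 3 rose with IAA in RRP6 and 1 in RAT1. Of all genes, 4.62% and 20% were called there. With the replicate block 4 and 4 of the 10 were called, and 830 and 1936 of all 5828 genes. The median change of the list was 0.20 in RRP6, -0.05 in RAT1 and 0.24 in WT, where none was called (2 at an unadjusted p under 0.05, 3 with the block). Beyond WT the median was -0.07 in RRP6 (all genes -0.0029). The 3 were named after their values were seen. NAB2, a poly(A)-binding protein known to restrict its own messenger RNA through Rrp6, read 850, 1073 and 936 CPM with IAA and 519, 488 and 505 CPM with DMSO, a rise of 0.91 on the log2 scale (limma adjusted p = 7.34e-04) that held in all 6 fits without 1 library. NAB2 was also higher with IAA than with DMSO, without overlap, in NOT5 (548 ± 42.7 against 379 ± 24.3 CPM) and PAT1 (522 ± 79.7 against 349 ± 20.5). Its WT means were 452 ± 45.5 CPM with IAA and 381 ± 26.1 with DMSO, and its means were lower with IAA in CAF40 and LSM1. FKS2, a glucan synthase subunit, read 1915, 1908 and 1968 CPM with IAA and 1245, 1292 and 1222 CPM with DMSO (0.62, adjusted p = 0.0104), a call lost without DMSO library 3. In WT it read 1477, 1236 and 1550 CPM with IAA and 1288, 987 and 990 CPM with DMSO. PCF11, a cleavage factor that binds the polymerase tail, read 90.4, 82.9 and 74.7 CPM with IAA and 58.3, 63.1 and 52.7 CPM with DMSO (0.51, adjusted p = 0.0326), a call lost in 4 of 6 such fits, without IAA library 1 or 2 or DMSO library 1 or 3, and with total counts or only the groups compared. FKS2 was also the gene called in RAT1 (0.49, adjusted p = 0.0272), where its groups overlapped and the call was lost without IAA library 1 or 3 or DMSO library 2 and with total counts or only the groups compared. None of the 10 was called beyond WT in RRP6, where 2 had an unadjusted p under 0.05 and 0 were called with the block. That comparison called 1 of all 5828 genes, and 8 with the block.

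Of 22 cleavage, polyadenylation and termination factors, 7 were called with IAA in RAT1 (4 higher, 3 lower, median 0.23), where 20% of all genes were called, and 2 in RRP6 (both higher, median 0.09), where 4.62% were. With the replicate block 13 and 5 were called, and 1936 and 830 of all 5828 genes. The list's median in WT was 0.03, and beyond WT it was 0.03 in RAT1, as over all genes. Beyond WT, 2 were called in RAT1, where 6.88% of all genes were, and 4 with the block, which called 799 of 5828. SWD2, a subunit of the cleavage and polyadenylation factor, read 10.3, 11.5 and 11.1 CPM with IAA in RAT1 and 19.0, 19.3 and 17.5 CPM with DMSO, a fall of 0.93 beyond WT (limma adjusted p = 0.00384). RNA14, a scaffold of cleavage factor IA, read 137, 146 and 161 CPM with IAA and 112, 107 and 120 CPM with DMSO, a rise of 0.36 beyond WT (adjusted p = 0.0435) that was lost in 8 of 12 fits without 1 library, under both other scalings, with no low-count filter and with only the groups compared. RNA14 was also higher with IAA than with DMSO in LSM1 (126 ± 8.58 against 90.1 ± 2.86 CPM) and NOT5 (111 ± 7.38 against 88.6 ± 2.39). Its mean was lower with IAA in PAT1 and XRN1.

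Of 10 other pyrimidine genes, URA4, dihydroorotase, was the 1 called in RAT1 with IAA, where 20% of all genes were. In RRP6 0 were called, with 0 at an unadjusted p under 0.05. The block called 1 in RRP6 and 3 in RAT1, and 830 and 1936 of all 5828 genes. URA4 read 20.8, 34.0 and 20.4 CPM with IAA and 53.5, 58.0 and 58.1 CPM with DMSO, and fell by 1.20 on the log2 scale (limma adjusted p = 3.21e-08) and by 1.30 beyond WT (adjusted p = 1.12e-05). The median of the 10 was -0.12 in RAT1. Of 16 other purine genes tested, 3 rose in RAT1 (median 0.16), a share below the 20% of all genes called there, and 4 with the block. In RRP6 0 were called (median 0.12), and 4 with the block. At an unadjusted p under 0.05 were 6, and 940 of all 5828 genes. The median of the list in WT was 0.19. MTD1, a folate enzyme that serves purine synthesis, read 120, 135 and 109 CPM with IAA in RAT1 and 82.9, 87.3 and 81.8 CPM with DMSO, a rise of 0.62 beyond WT (adjusted p = 0.0343) that was lost in 8 of 12 fits without 1 library and with total counts.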

How the data were processed

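The authors deposited 1 table of whole-number read counts per gene and library, and the submitters' processing notes name STAR 2.7.10a, RSEM 1.3.1 and DESeq2 1.48.1 without giving their roles. The genome build and annotation are not given in the sources used here, nor is whether counting used the strand of the directional, paired-end libraries. The same deposited columns also hold annotation and principal component scores above the gene lines, so the unit of the columns is other than counts taken whole. Only the gene lines were used. Another 6 columns match no sample and were not used.

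Samples were grouped by title and treatment label. The filter kept genes that reached 0.484 CPM (10 counts in a library of median size) in 3 libraries and 15 counts in all, which left 5828 and removed 343. TMM factors (trims 0.3 and 0.05) lay between 0.63 and 1.17. Log2 CPM with a pseudocount of 0.5 counts, computed from the deposited counts, were given voom weights and fitted with limma 3.58.1 in R 4.3.3, with 1 mean per group over all 66 libraries. Benjamini-Hochberg adjustment ran over all genes of a comparison, and a gene was called at an adjusted p under 0.05. There were 34 comparisons: IAA against DMSO in 11 strains, the change beyond that of WT in 10, DMSO against WT DMSO in 10, IAA against WT IAA in RRP6 and RAT1, and the RRP6 change against the RAT1 change. The fit was also run on simulated counts with large changes and noise independent between libraries. That run does not cover smaller changes or replicates that deviate together. Figures were drawn with matplotlib 3.10.9 in Python 3.11.15.

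Every pair of replicates differed by more than counting noise (chi-square per degree of freedom 21.2 to 1137). Same-numbered libraries of a strain deviated together, with a correlation over 0.1 in all 3 pairs of 8 of 11 strains and not in WT, CAF40 or POP2 (30 of 33 pairs, -0.16 to 0.70). For those 8 strains the value with a replicate block is given where it changed a call of IAA against DMSO.

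The 9 genes were always named. From the lists, genes called in RRP6 or RAT1 beyond WT, or in RRP6 with DMSO against WT, were named, as were the 5 genes most like NRD1. Members, lists and tests were chosen with earlier results of these data known. Of 6171 lines, 5626 matched a RefSeq R64 entry (91.2%), and the members were matched by systematic name. Alternatives were 2 other scalings, 2 other low-count filters, no voom weights, a pseudocount of 2 counts, only the groups compared, the block, each library left out in turn, and IMD3 and IMD4 summed.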

Additional observations from a re-analysis of the deposited data

Results flagged for a closer look

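SEN1 in POP2 differed from WT in its change with IAA, by -0.51 on the log2 scale, in a test of the difference itself. In RAT1 the changes of 4 genes of the fixed lists differed from those of WT by the same test: SWD2 by -0.93, RNA14 by 0.36, URA4 by -1.30 and MTD1 by 0.62.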

How the results depend on the processing

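Of 35 called values of genes named in the text, 32 were kept with median-of-ratios scaling, 26 with total counts (1 reversed), 32 with no filter, 34 with a mean of at least 10 counts, 34 without voom weights, 35 with a pseudocount of 2, 20 with only the groups compared and 35 with the replicate block. They include NAB2, PCF11 and AIR2 in RRP6 with IAA against WT with IAA, which are not given above. The change of URA4 with IAA against DMSO in RAT1 is not among them. The 8 genes' calls for IAA against DMSO were 9, and 4 with only the groups compared, 19 with the replicate block and 8 to 10 without 1 library. The block raised the calls over all 5828 genes in every strain as well. They went from 199 to 808 in WT, 269 to 830 in RRP6 and 1165 to 1936 in RAT1. The rise from 9 to 19 is therefore not particular to the 8 genes. Beyond WT they were 1, 3 with the block and 0 to 2 without 1 library. With DMSO against WT they were 8, 13 with the block and 2 to 8 without 1 library (2 without WT library 2, 4 without WT library 3, 5 without LSM1 library 1). With IAA against WT IAA they were 5, 3 with only the groups compared and 4 to 6 without 1 library. The RRP6 change against the RAT1 change gave 0, 1 with the block and 0 without each library. SEN1 in PAB1 with DMSO reversed to -0.109 (adjusted p = 0.418) with total counts, a scaling that moved the median of all genes by -0.40 there. It also moved the median by -0.21 for IAA in PAB1 and beyond WT, by -0.14 in RAT1 against WT with IAA, and by 0.11 between the RRP6 and RAT1 changes. Directions near 0 flipped under a scaling for SEN1 and URA8 in LSM1 and for URA2 in POP2 and PAT1 with IAA. NRD1 in RRP6 with DMSO against WT was called with the block (adjusted p = 0.00685), where the numbers are shared only in name, as were NOT5 and PAB1 (0.0159 and 0.0347). The block also called URA8 in CAF40 with IAA. The causes were not tested.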
